A study of Mus musculus with 40 samples.

Results

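Divergent promoters are stretches of DNA from which a pair of protein-coding genes is read in opposite directions. Members were chosen from the GENCODE M21 basic annotation of the GRCm38 mouse genome, on chromosomes 1 to 19. A pair was taken when its genes lay on opposite strands, with their 5′ ends head to head, not overlapping and at most 1000 bp apart. This gave 734 pairs, which held 1448 of the 20807 protein-coding genes (6.96%). Each member is the interval between both 5′ ends widened by 500 bp on each side, with a median window of 1129 bp. The comparison class was made of 18126 single promoters, coding genes with no other coding 5′ end nearby, each taken as its 5′ end with 500 bp on both sides. The other 1233 coding genes fell in neither class. In 20 cases a gene belonged to more than 1 pair, and 714 separate intervals remained after overlapping windows were joined. A further 446 opposite-strand coding pairs with 5′ ends within 1000 bp were not members because their annotated 5′ ends overlapped. The well-known pairs Hspd1-Hspe1, Surf1-Surf2, Psmb9-Tap1 and Col4a1-Col4a2 were left out for that reason, whereas Atm-Npat, Brca1-Nbr1, Mcm4-Prkdc, Mrps12-Sars2 and Col4a4-Col4a3 were members.

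A shared promoter of this kind usually lies in a CpG island, lacks a TATA box and serves housekeeping genes, often of DNA repair, mitochondria or RNA processing. Nucleosomes beside an active start site carry trimethylation of histone H3 lysine 4 (H3K4me3), while the start site itself is depleted of nucleosomes. Acetylation of H3 lysine 27 (H3K27ac) marks active promoters and enhancers.

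The peak lists came from chromatin immunoprecipitation with sequencing (ChIP-seq) of brown adipose tissue, a heat-producing fat depot, of wild type C57BL/6N mice, an inbred strain. All mice were 20 weeks old. Mice 1 and 2 were kept warm on normal chow (NCD), mice 4 and 5 were kept at 4 °C for 24 h on NCD, mice 7 and 8 were warm on a high-fat diet (HFD), and mice 10 and 11 were cold on HFD. The HFD was fed for 12 weeks from 8 weeks of age. Each mouse had 1 list per mark. Whether a library held tissue of 1 mouse or of 2 is not clear from the study's methods, so p-values measure the spread between these libraries, called mice here.

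The bases between the 5′ ends are shown for 8 pairs whose peaks are described singly below. They are the textbook members with 40 to 300 bp between their ends and pairs with genes of the respiratory chain, fat oxidation, the ribosomes and the histones. Each runs 5′ to 3′ on the plus strand of GRCm38, so that the gene named first is read leftwards from the left end and the gene named second rightwards from the right end. By the gene records these bases lie outside both genes. Capitals mark the motifs searched on both strands. The NF-Y motif was searched as CCAAT, the GC box as GGGCGG and the ETS family motif as CCGGAAG. The TATA motif was searched as TATAAA, the YY1 motif as AAGATGGCG and the NRF1 motif as GCGCATGCG. None of these motifs holds another.
Brca1-Nbr1, chr11:101551956-101552148: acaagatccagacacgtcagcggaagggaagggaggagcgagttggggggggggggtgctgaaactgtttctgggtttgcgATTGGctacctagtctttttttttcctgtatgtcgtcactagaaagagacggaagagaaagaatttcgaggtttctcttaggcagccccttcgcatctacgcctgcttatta
Col4a4-Col4a3, chr1:82586850-82586920: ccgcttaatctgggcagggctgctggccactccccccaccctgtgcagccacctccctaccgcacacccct
Mrps12-Sars2, chr7:28741821-28741991: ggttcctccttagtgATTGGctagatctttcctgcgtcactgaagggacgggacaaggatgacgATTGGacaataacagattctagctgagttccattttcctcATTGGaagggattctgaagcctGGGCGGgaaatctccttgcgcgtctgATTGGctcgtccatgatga
Hadha-Hadhb, chr5:30155163-30155247: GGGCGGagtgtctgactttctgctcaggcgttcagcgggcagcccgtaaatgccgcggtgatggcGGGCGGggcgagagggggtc
Uqcrh-Lrrc41, chr4:116075072-116075268: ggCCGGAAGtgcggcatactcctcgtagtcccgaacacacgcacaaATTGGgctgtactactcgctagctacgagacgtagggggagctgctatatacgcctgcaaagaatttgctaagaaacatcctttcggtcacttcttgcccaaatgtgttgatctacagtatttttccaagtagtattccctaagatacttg
Mrps18b-Ppp1r10, chr17:35916390-35916433: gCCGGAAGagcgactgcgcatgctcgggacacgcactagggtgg
Rps27-Rab13, chr3:90213652-90213694: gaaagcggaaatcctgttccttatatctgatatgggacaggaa
Bola1-Hist2h2ab, chr3:96219710-96219864: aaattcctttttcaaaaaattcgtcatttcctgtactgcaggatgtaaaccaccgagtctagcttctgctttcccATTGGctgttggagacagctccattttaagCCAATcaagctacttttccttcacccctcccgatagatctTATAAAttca

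The CCAAT motif, which NF-Y binds, occurred 4 times between Mrps12 and Sars2 and in none of the bases between Hadha and Hadhb, which held the GC box 2 times. TATAAA occurred beside Hist2h2ab. Over all members, 284 of 734 intervals between the ends held CCAAT (38.7%), 391 held the GC box (53.3%), 113 held the ETS motif (15.4%) and 29 held TATAAA (3.95%). For a comparison at equal length, each coding gene was searched from 250 bp before to 50 bp after its 5′ end. The windows of the genes of a close pair share bases, so the genes of a pair are not independent. The ETS motif was in 27.6% of the 1448 genes of divergent pairs, in 9.20% of single promoters and in 11.0% of all coding promoters. The YY1 motif was in 5.46%, 1.31% and 1.70%, and the NRF1 motif in 4.90%, 1.93% and 2.20%. The GC box was in 68.9%, 41.1% and 43.7%, and CCAAT in 43.6%, 38.5% and 38.6%. TATAAA ran the other way, with 4.14% of divergent, 13.7% of single and 12.7% of all coding promoters.

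Base composition separated the classes. A window was called CpG-rich when the stretch of 500 bp on each side of the middle of the pair, or of a single 5′ end, had at least 50% G and C and an observed-to-expected CpG ratio of at least 0.6. By this rule 617 of 734 pairs (84.1%) and 7430 of 18126 single promoters (41.0%) were CpG-rich. The median ratio was 0.777 in pairs and 0.498 in single promoters. CpG-rich single promoters held the ETS motif in 16.4%, the YY1 motif in 2.54%, the NRF1 motif in 3.86%, TATAAA in 6.19% and the GC box in 72.7%, all nearer to the pair genes than single promoters as a whole. CCAAT was in 37.2% of them, which lay farther from the 43.6% of pair genes. The median distance between the 5′ ends was 128 bp (quartiles 66.3 and 240.0 bp), and 506 pairs (68.9%) were at most 200 bp apart.

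The lists differed widely in length. H3K4me3 lists held 13517 to 24104 peaks and H3K27ac lists 3224 to 40604, with the fewest in mouse 7 and the most in mouse 11 for both marks. Mouse 10 had the next shortest lists, with 17195 and 14511 peaks. Read depth is not given in the lists. Values are therefore also given without mice 7 and 10 where those lists matter. The tissue label was checked on marker promoters. H3K4me3 was present in all 8 mice at 6 of 8 brown adipocyte markers and in at least 1 mouse at all 8. It was present in no mouse at 3 of 3 hepatocyte and 2 of 2 neuronal markers. Of 5 skeletal muscle markers 3 had it in at least 1 mouse, and of 4 macrophage markers 1. Of 4 endothelial markers 3 had it in at least 1 mouse and 1 in all 8.

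H3K4me3 covered almost every divergent promoter and about every other single one. A peak overlapped 86.8% of divergent promoters in mouse 7 and 94.6% in mouse 10, and 95.8% to 96.7% in the other 6 mice. Single promoters had a peak in 33.6% in mouse 7, 46.0% in mouse 10 and 50.7% to 56.0% in the others. The lowest divergent value lay above the highest single value. Means were 94.9% ± 3.33 and 50.0% ± 7.30 (SD, n = 8 mice), a difference of 44.8 ± 4.12 percentage points that was positive in 8 of 8 mice. An exact permutation test over the signs of the 8 within-mouse differences gave p = 0.00781, the smallest it can give, and 0.0182 after Benjamini-Hochberg adjustment over the 7 comparisons of the classes. Among CpG-rich promoters the classes lay much nearer, at 98.2% ± 2.93 and 88.3% ± 11.5, with a difference of 9.90 ± 8.70 points (8 of 8 mice, exact permutation p = 0.00781). The difference among CpG-rich promoters was 2.97 to 29.4 points in single mice and largest in mouse 7.

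H3K4me3 was present in all 8 mice at 637 of 734 divergent promoters (86.8%) and at 6025 of 18126 single promoters (33.2%). In all mice but mouse 7, the counts were 694 (94.6%) and 8186 (45.2%). Only 23 divergent promoters (3.13%) had no H3K4me3 in any mouse, as did 7686 single promoters (42.4%). Among CpG-rich promoters 1 of 617 divergent and 224 of 7430 single promoters (3.01%) lacked it in every mouse. H3K4me3 peaks at divergent promoters also stood higher within their own lists. Ranked by q-value within a list, their median percentile was 82.6 ± 5.21 (SD, n = 8), with 67.3 ± 4.43 for peaks at single promoters. For H3K27ac the percentiles lay close together, at 69.1 ± 12.1 and 67.9 ± 6.38.

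H3K27ac was the more variable mark between mice. It overlapped 5.04% of divergent promoters in mouse 7 and 37.2% in mouse 10. Mice 4, 1 and 8 followed with 58.7%, 66.5% and 74.8%. The highest shares were those of mice 11, 5 and 2, with 83.0%, 84.3% and 86.1%. The same lists gave 2.18% and 13.2% of single promoters in mice 7 and 10 and 24.4% to 36.9% in the others. Divergent promoters were higher in 8 of 8 mice, although the ranges over mice overlapped. The means were 62.0% ± 28.2 and 26.1% ± 12.6, with a difference of 35.9 ± 15.7 points (exact permutation p = 0.00781, adjusted 0.0182). When a peak had to cover the 5′ end itself, the difference was 16.0 ± 10.8 points, still positive in 8 of 8 mice (exact permutation p = 0.00781). Among CpG-rich promoters they were 65.3% ± 30.3 and 46.4% ± 23.8, a difference of 18.9 ± 7.14 points in the same direction in 8 of 8 mice (exact permutation p = 0.00781).

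**Figure D1:**
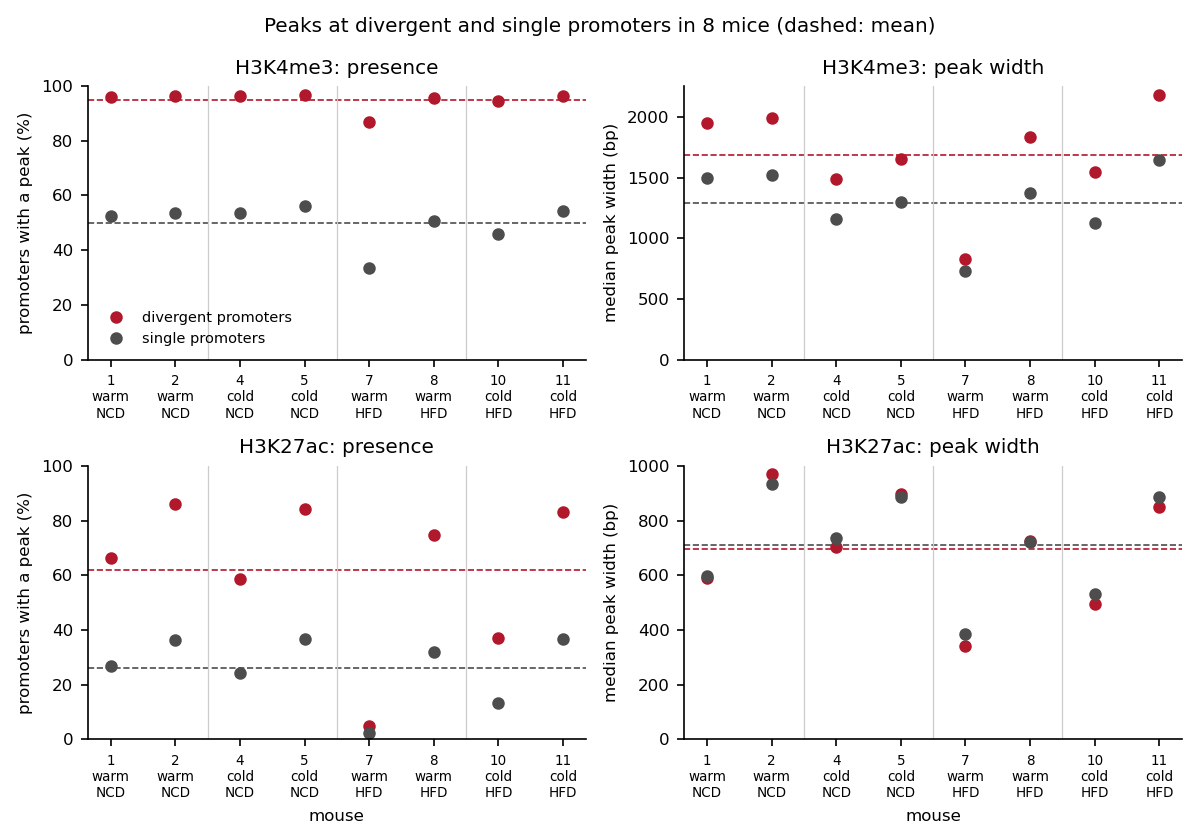
Percent of promoters with a peak (left) and median width of the widest overlapping peak in bp (right) for H3K4me3 (top) and H3K27ac (bottom) in each of 8 mice, with temperature and diet below each mouse number. Red points are divergent promoters, grey points single promoters and dashed lines their means. H3K4me3 presence was 86.8% or more at divergent promoters in every mouse, and H3K27ac widths of both classes lay within 46.0 bp of each other in each mouse.

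Only 34 divergent promoters had both marks in all 8 mice (4.63%), a count limited by the 37 members with H3K27ac in mouse 7. Without mouse 7, H3K27ac was present in every mouse at 248 members (33.8%) and 2097 single promoters (11.6%). Without mice 7 and 10 it was present in every mouse at 377 (51.4%) and 3472 (19.2%). At 586 members (79.8%) H3K4me3 was in all 8 mice and H3K27ac in 1 to 7, and at 17 (2.32%) H3K4me3 was in all 8 and H3K27ac in none. H3K27ac in any mouse without H3K4me3 in any mouse was seen at 0 members. Among promoters with H3K4me3 in the same mouse, H3K27ac was present at 64.5% ± 29.0 of divergent and 48.6% ± 21.8 of single promoters. The difference was 15.9 ± 7.49 points (exact permutation p = 0.0156, adjusted 0.0219), and 7 of 8 mice had a positive one. It was −0.404 points in mouse 7, where 5.81% and 6.21% had the mark. When peaks of both marks had to cover the 5′ end, the difference was 6.74 ± 5.32 points (exact permutation p = 0.0156). Among CpG-rich promoters with H3K4me3 the difference was 15.8 ± 6.44 points, positive in 8 of 8 mice (exact permutation p = 0.00781). The excess of divergent over single promoters was 35.9 points for H3K27ac and 44.8 for H3K4me3. These did not differ beyond the spread between mice (exact permutation p = 0.137, adjusted 0.137, n = 8 and 8 libraries). Over sign flips within mice the exact permutation p was 0.305. Among CpG-rich promoters that order was the other way round, with a larger excess for H3K27ac by 8.97 points (exact permutation p = 0.0392). That comparison was chosen after seeing the data and its p was not adjusted. H3K4me3 was near its ceiling there, at 98.2% of divergent and 88.3% of single promoters. The part of that ceiling in the order was not tested.

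H3K4me3 peaks were wider at divergent promoters, whereas H3K27ac peaks were not measurably so. The median width of the widest H3K4me3 peak was 830 bp in mouse 7 and 1492 to 2183 bp in the other mice at divergent promoters. At single promoters it was 730 bp in mouse 7 and 1124 to 1649 bp in the others. The means were 1686 ± 419 bp and 1294 ± 291 bp, with a difference of 392 ± 134 bp in the same direction in 8 of 8 mice (exact permutation p = 0.00781, adjusted 0.0182). The difference was 100.0 bp in mouse 7 and 337 to 534 bp in the others. It was 368 bp for pairs at most 200 bp apart and 255.8 bp between CpG-rich promoters marked in all 8 mice, both with the same sign in every mouse and an exact permutation p of 0.00781. For H3K27ac the widths were 697 ± 213 bp and 710 ± 194 bp, and the difference of −12.9 ± 28.9 bp ranged from −46.0 to 35.5 bp (exact permutation p = 0.289, adjusted 0.289). When weaker peaks were dropped, keeping a −log10 q of 5 or more, the H3K27ac difference was −45.4 bp (exact permutation p = 0.0156).

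The arrangement of the peaks over the start sites differed between the marks. A single H3K4me3 peak lay over both 5′ ends in 24.5% of marked pairs in mouse 7 and in 69.2% to 95.4% in the others, with a mean of 80.0% ± 24.1. For H3K27ac this share was 5.41% in mouse 7 and at most 51.7% in the others, with a mean of 29.6% ± 15.5. The difference of 50.4 ± 14.5 points was positive in 8 of 8 mice (exact permutation p = 0.00109 over 8 and 8 libraries, adjusted 0.00218). That test ignores that the libraries of both marks come from the same mice. Over sign flips within mice the exact permutation p was 0.00781. Pairs with a peak in the window that covered neither 5′ end made up 12.0% ± 21.8 of H3K4me3-marked and 54.2% ± 18.3 of H3K27ac-marked pairs. In mouse 7 they were 64.1% of its own H3K4me3-marked pairs. Separate peaks over each 5′ end were rare, at 1.02% ± 0.607 and 0.243% ± 0.339. The summit of the widest peak mostly lay inside one of the genes. It lay between the 5′ ends in 2.17% ± 0.272 of H3K4me3-marked and 8.64% ± 1.39 of H3K27ac-marked pairs, and otherwise about equally often in the minus-strand gene (49.7% and 46.0%) and the plus-strand gene (48.1% and 45.3%).

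Seen from each gene, the H3K4me3 peak over a divergent 5′ end reached less far into the gene than at a single promoter. The median distance from the 5′ end to the downstream edge was 657 bp in mouse 7 and 681 to 996 bp in the others for the genes of pairs, and 655 bp in mouse 7 and 820 to 1152 bp in the others for single genes. Means were 816 ± 121 and 929 ± 154 bp, a difference of −114 ± 51.9 bp, with 1.50 bp in mouse 7 and negative values in the other 7 (exact permutation p = 0.0156, adjusted 0.0219). Among CpG-rich promoters the difference was −142 ± 60.8 bp and negative in 8 of 8 mice (exact permutation p = 0.00781). Where one peak covers both 5′ ends, the upstream reach of a gene is its partner's downstream reach plus the distance between the ends. A longer upstream reach in pairs therefore follows in part from how pairs were chosen. Upstream of the 5′ end, towards the partner, the peak reached 931 ± 142 bp for the genes of pairs and 414 ± 72.6 bp for single genes. The 737 single genes that face a noncoding gene head to head lay between these, with 627 ± 85.2 bp upstream and a median width of 1517 ± 393 bp. H3K27ac reached 499 ± 101 bp into the genes of pairs and 586 ± 184 bp into single genes. Its difference of −87.0 ± 88.2 bp was negative in 7 of 8 mice and 85.0 bp in mouse 7 (exact permutation p = 0.0391, adjusted 0.0456). When any one of mice 1, 2, 5, 8 or 11 was left out, the exact permutation p before adjustment was 0.0781, with differences of −75.6 to −81.9 bp. Without mouse 4 or mouse 10 this unadjusted p was 0.0469, and without mouse 7 it was 0.0156. Adjustment was not repeated for these, so whether the call holds in them is not given. With only 5′ ends covered by H3K27ac in all 8 mice the difference was 4.50 bp (exact permutation p = 0.953).

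**Figure D2:**
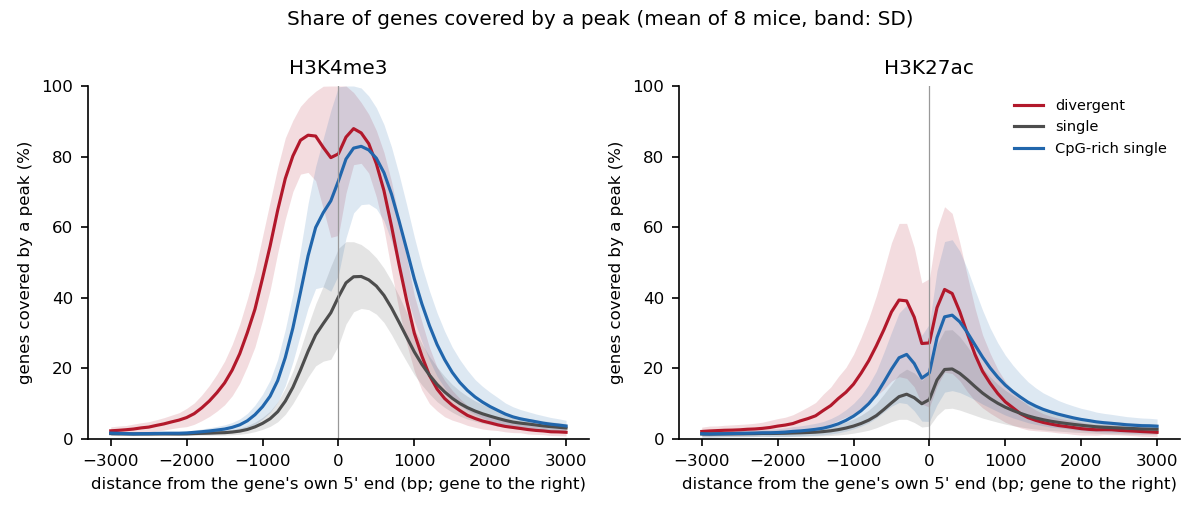
Percent of genes covered by an H3K4me3 (left) or H3K27ac (right) peak at each distance in bp from the gene's own 5′ end, with the gene to the right of 0, for genes of divergent pairs (red), single genes (grey) and CpG-rich single genes (blue). Lines are means of 8 mice and bands the SD. Divergent genes showed a shoulder on both sides of the 5′ end for both marks. H3K4me3 lay over 84.6% of them 500 bp upstream, against 19.6% of single genes and 41.6% of CpG-rich single genes. That point lies at or past the partner's 5′ end in all but 68 of 734 pairs.

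Genes of pairs were covered less often near the 5′ end than on either side of it. H3K4me3 covered 87.9% ± 10.2 of the genes of pairs 200 bp into the gene and 80.8% ± 23.1 at the 5′ end, and H3K27ac 42.4% ± 23.4 and 27.2% ± 18.2. Without mouse 7 the H3K4me3 shares were 91.4% ± 2.57 and 88.5% ± 7.83, and those of H3K27ac 48.2% ± 18.0 and 31.1% ± 15.8. H3K4me3 over single genes had no such dip, with 35.8% at 100 bp upstream, 40.3% at the 5′ end and 46.0% at 200 bp into the gene. H3K27ac did dip at single genes. It covered 12.7% of them at 300 bp upstream, 10.0% at 100 bp upstream and 19.9% at 300 bp into the gene. At CpG-rich single genes these H3K27ac shares were 24.0%, 17.3% and 35.1%. At 1000 bp into the gene, 30.0% of the genes of pairs, 24.7% of single and 45.4% of CpG-rich single genes were covered by H3K4me3. At 1000 bp upstream, which in every pair lies past the partner's 5′ end, the shares were 45.5%, 4.45% and 9.17%.

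The distance between the 5′ ends changed presence little up to 500 bp. H3K4me3 was present at 96.4% ± 1.71 of 306 pairs at most 100 bp apart and at 95.9% ± 3.12 of 64 pairs more than 300 and at most 500 bp apart. It was present at 87.1% ± 7.15 of the 68 pairs more than 500 bp apart. The median H3K4me3 width was 1643 ± 387 bp in the nearest and 1909 ± 479 bp in the farthest of these bins, with the farthest wider in 7 of 8 mice, and one peak over both ends became rarer, from 88.0% ± 23.3 to 55.1% ± 20.4 of marked pairs. H3K27ac widths were 731 ± 245 bp in the nearest bin, 599 ± 169 bp between 200 and 300 bp and 833 ± 262 bp in the farthest. Mouse 7 had H3K27ac at 1.47% of the farthest pairs, and without it the nearest and farthest bins had 795 ± 179 and 781 ± 235 bp. An H3K27ac summit between the ends was seen in 0.0934% ± 0.173 of marked pairs at most 100 bp apart and in 32.7% ± 3.62 between 300 and 500 bp. These bins are descriptions and were not tested.

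**Figure D3:**
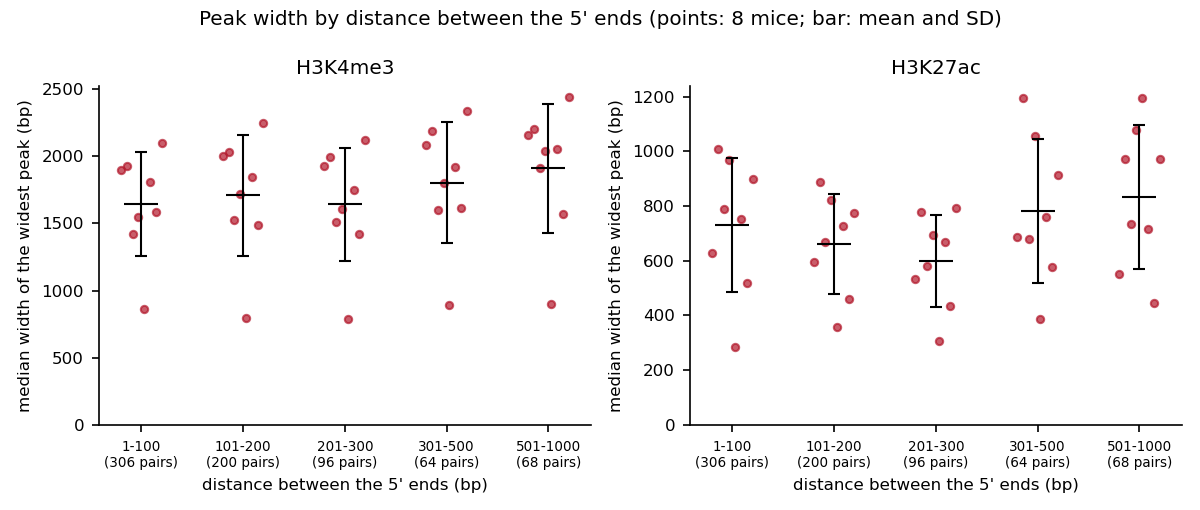
Median width in bp of the widest H3K4me3 (left) or H3K27ac (right) peak against the distance between the 5′ ends in bp, in 5 bins. Points are the 8 mice and bars their mean and SD. Mean H3K4me3 width was 1643 bp in the nearest and 1909 bp in the farthest bin, which was the wider one in 7 of 8 mice.

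Acetylation was often on one side. Within a mouse, H3K27ac lay over the first 500 bp of both genes in 49.7% ± 22.2 of marked pairs and of only one gene in 49.3% ± 21.3. These means include mouse 7, with only 37 marked members, where the shares were 8.11% and 89.2%. The highest share with both genes was 73.1%, and the lowest with only one was 26.6%. For H3K4me3 the mean shares were 92.2% ± 8.21 and 7.72% ± 8.16. The acetylated side was mostly the same between mice. Of 150 pairs with H3K27ac over the first 500 bp of only one gene in at least 4 mice, 140 (93.3%) had it on the same gene in all of those mice, which was the minus-strand gene in 63 and the plus-strand gene in 77. H3K4me3 also leaned to the acetylated gene. Among pairs with H3K27ac on one side and one H3K4me3 peak over both 5′ ends in the same mouse, H3K4me3 reached farther into the acetylated gene in 75.8% ± 7.94 of pairs, from 64.5% in mouse 4 to 91.7% of only 12 pairs in mouse 7. The median reach was 933 ± 120 bp into the acetylated gene and 671 ± 82.9 bp into its partner. This relation was looked for after the peaks were seen and carries no test.

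Brca1-Nbr1 was the one member with H3K27ac over the first 500 bp of one gene in all 8 mice and of the other in none. Only the 37 members with H3K27ac in mouse 7 could meet this rule. The mark lay on Nbr1, a receptor of selective autophagy, and not on Brca1, a DNA repair gene. H3K4me3 overlapped the first 500 bp of both genes in 8 of 8 mice, without covering all of them in mouse 7. Its H3K27ac peak was 388 to 524 bp wide in mice 1, 7, 8, 10 and 11 and 1620 to 2000 bp in mice 2, 4 and 5. Its H3K4me3 peak was 490 bp in mouse 7 and 2258 to 2805 bp in the others. The 5′ ends are 194 bp apart, and the bases between them are printed above.

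H3K4me3 itself was on one gene in all 8 mice and on the other in none at 5 members, none of them with ends within 200 bp. It lay on Tpcn1, an ion channel of endosomes and lysosomes, and not on Iqcd (343 bp apart). It lay on Sirt6, a nuclear deacetylase, and not on Ankrd24 (743 bp), and on Ppp1ca, a catalytic subunit of protein phosphatase 1, and not on Tbc1d10c (781 bp). The others were Khnyn without Cbln3 (555 bp) and Haghl without Ccdc78 (907 bp). H3K27ac, where present, lay on the same side in all 5, in 7 mice at Tpcn1 and Sirt6 and in 4 at Haghl. In contrast, 459 members had H3K4me3 over the first 500 bp of both genes in all 8 mice, whereas for H3K27ac this held at 3. Without mouse 7, which had H3K27ac at only 37 members, the counts were 625 and 63.

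The median H3K4me3 width of the 637 members marked in all 8 mice was 1856 bp (quartiles 1497 and 2219 bp), and the highest was 4913 bp at Tmem135-Fzd4, of which Fzd4 is a Wnt receptor. In the order of the mice, its widths were 4973, 6011, 3256, 4852, 2714, 5330, 3356 and 9373 bp. Crat-Ptpa, with the carnitine acetyltransferase gene Crat, had a median of 4855 bp. Other wide ones were Dcaf6-Mpc2 (4189 bp), with a subunit of the mitochondrial pyruvate carrier, and Uqcrh-Lrrc41 (4158 bp), with a subunit of respiratory complex III. These 4 were picked by width, so their widths are descriptions.

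Hadha-Hadhb carried the widest H3K27ac among members with a peak in every mouse. Both genes encode subunits of the trifunctional protein, which oxidises long-chain fatty acids in mitochondria, and their 5′ ends are 86 bp apart. Its H3K27ac peak was 9252, 6281, 14543, 5168, 1083, 11533, 14043 and 21595 bp wide in mice 1, 2, 4, 5, 7, 8, 10 and 11, with a median of 10393 bp. Its H3K4me3 peak was 2479 to 12822 bp wide, with a median of 4103 bp. Cold and warm mice overlapped, as did HFD and NCD mice. Elmod3-Retsat, with retinol saturase, had a median of 3276 bp (421 to 5742 bp). For comparison, the median over the 34 members with H3K27ac in all 8 mice was 1425 bp.

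**Figure D4:**
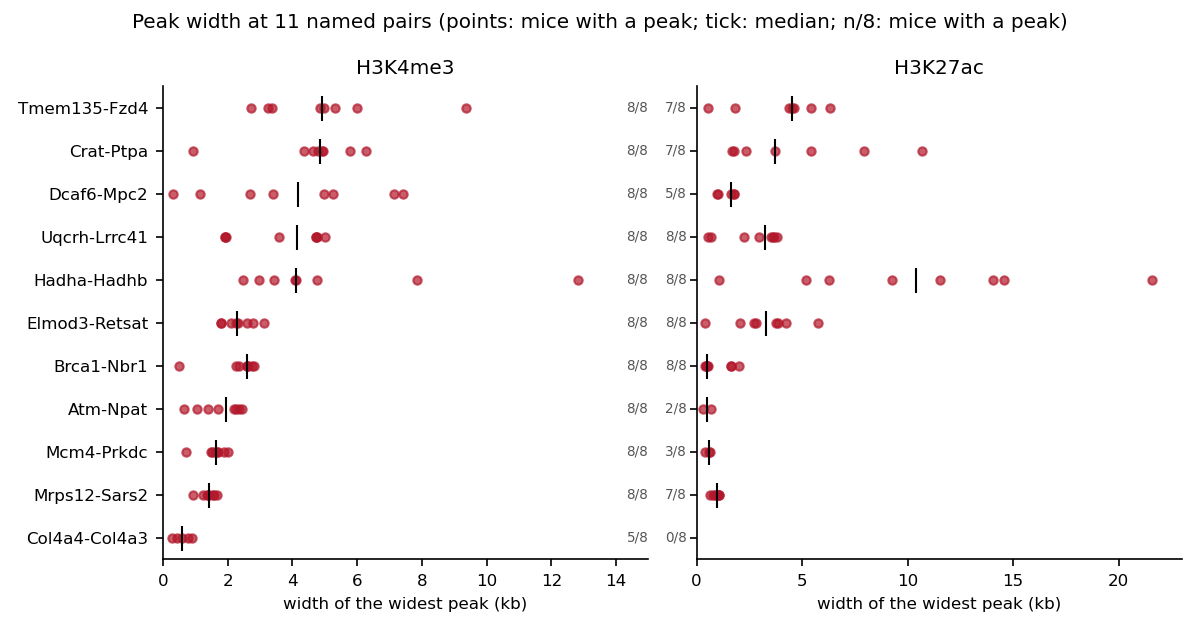
Width in kb of the widest H3K4me3 (left) and H3K27ac (right) peak at 6 wide and 5 textbook pairs. Points are mice with a peak, ticks their median and the fraction the number of mice with a peak out of 8. Hadha-Hadhb reached farthest for H3K27ac, with a median of 10393 bp, and Col4a4-Col4a3 had no H3K27ac in any mouse.

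The other textbook pairs had H3K27ac in fewer mice than H3K4me3. Atm-Npat, with the kinase that signals DNA double-strand breaks, had H3K4me3 in 8 mice (median 1947 bp) and H3K27ac in 2. Mcm4-Prkdc, with a subunit of the replicative helicase and the DNA-dependent protein kinase, had H3K4me3 in 8 mice (1640 bp) and H3K27ac in 3. Mrps12-Sars2, both of mitochondrial translation, had H3K4me3 in 8 (1417 bp) and H3K27ac in 7 (968 bp), in all but mouse 7. Col4a4-Col4a3, which encode collagen IV chains best known from the kidney filter, had H3K4me3 in 5 mice at 272 to 897 bp and H3K27ac in none. The mice without it were 7, 8 and 10, all on HFD, while mouse 11 on HFD had a peak of 576 bp.

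Of the 23 members without H3K4me3 in any mouse, the 5 with the nearest ends were Best1-Rab3il1 (36 bp), Rnf151-Rps2 (53 bp), 4930430F08Rik-1700017N19Rik (61 bp), Dgcr2-Tssk2 (75 bp) and Il11-Tmem190 (78 bp). Only 1 of the 23 was CpG-rich, the histone pair Hist1h2ba-Hist1h2aa. In 6 of them another annotated start of one of the genes had H3K4me3 in all 8 mice. One was Rps2, a ribosomal protein gene marked at a start 1947 bp away, and another was Pecam1, an endothelial gene marked at a start 35234 bp away. For 11 of them no annotated start of either gene was marked in any mouse. The 5′ ends used here are those of the gene records, which can extend beyond the basic transcripts. With the outermost protein-coding basic transcript in their place there were 765 pairs, 660 of them among the 734.

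Of the 17 members with H3K4me3 in 8 mice and H3K27ac in none, the 5 with the nearest ends were Wdr54-1700003E16Rik, Dnajc2-Psmc2, Net1-Tubal3, Alyref-Anapc11 and Fam229b-Tube1. Psmc2 encodes a proteasome subunit, Alyref an mRNA export factor and Anapc11 a subunit of the anaphase-promoting complex. The median H3K4me3 width of these 5 was between 783 and 1832 bp, and all lay below the 1856 bp of the 637 members marked in every mouse.

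H3K4me1 and H3K27me3 were found at few divergent promoters. H3K4me1 lists held 12 to 27568 peaks. The mark was present at 48 members (6.54%) in mouse 5, its longest list, and at 4.90% in mouse 2, with 3.70% and 3.29% of single promoters in the same lists. It was present at 1.91% of members or fewer in the others. H3K27me3, laid down by Polycomb complexes, was present at 8 members (1.09%) in mouse 5 and 2 (0.272%) in mouse 11, and at 5.11% and 0.910% of single promoters in the same lists. The other 6 lists held at most 309 peaks and touched no member. Nr2e1-Ostm1 and Obsl1-Inha had H3K27me3 in 2 mice. Nr2e1 is a nuclear receptor of neural stem cells, and Inha encodes the inhibin alpha chain. H3K4me3 was found in 2 and 6 mice at these pairs and H3K27ac in none.

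Gene groups were followed through fixed lists, which describe the members and were chosen with earlier results of these data known. Against 6.96% of all coding genes, members of divergent pairs made up 40.3% of 67 clustered histone genes and 31.9% of 116 DNA repair and replication genes. They made up 31.0% of 29 RNA polymerase subunits and 23.1% of 78 mitochondrial ribosomal proteins. They also made up 24.2% of 91 respiratory chain genes, a list of subunits and Ndufaf assembly factors. They made up 4.23% of 71 brown fat and adipocyte genes. Of 1606 genes of chemoreceptor (Olfr, Vmn, Taar, Tas2r), beta-defensin and keratin-associated protein families they made up 0.0623%. Shares were 5.19% of 385 zinc finger Zfp genes and 6.98% of 43 genes of the collagen list. Those of 79 cytosolic ribosomal proteins and 43 mitochondrial carriers were 10.1% and 11.6%. The remaining lists lay between 13.2% (38 tRNA synthetases) and 20.0% (20 mitochondrial chaperones and proteases). All 22 pairs with a gene of the respiratory chain list had H3K4me3 in 8 mice. Of these, 7 had H3K27ac in 8 mice, among them Fam126b-Ndufb3, Sdhd-Timm8b and Atp5h-Kctd2. Of the 58 single respiratory chain genes, 47 had H3K4me3 and 21 had H3K27ac in 8 mice. All 18 pairs with a mitochondrial ribosomal protein had H3K4me3 in 8 mice, with 40 of 44 single ones. All 11 spliceosome, 9 RNA polymerase and 6 proteasome pairs had it in 8 mice as well. So did 7 of 8 pairs with a cytosolic ribosomal protein and 15 of 18 with a zinc finger Zfp gene. Of the 2 pairs of the collagen list, Polk-Col4a3bp had it in 8 mice and Col4a4-Col4a3 in 5. Col4a3bp does not encode a collagen chain. The H3K4me3 counts stand beside 86.8% of all members and the H3K27ac counts beside 4.63%. No difference from these shares was tested.

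The DNA repair and replication pairs had H3K4me3 in 8 mice at 34 of 38. H3K27ac was in 8 mice at 1 of them, Brca1-Nbr1, against 4.63% of all members. Pms1 and Rpa3 each enter more than 1 of the 38 pairs, with the same median widths. Of 14 pairs of clustered histone genes, which share reads among near-identical copies and are therefore uncertain, 6 had H3K4me3 in 8 mice and 7 in 7 mice. Bola1-Hist2h2ab was the only histone pair with H3K27ac in all 8, at 246 to 3408 bp. The brown fat list contributed 2 pairs, Hadha-Hadhb and Tada2a-Acaca. Tada2a-Acaca, with acetyl-CoA carboxylase of fatty acid synthesis, had H3K4me3 in 8 mice (1166 bp) and H3K27ac in 2. Mrps18b-Ppp1r10 had H3K4me3 of 913 bp in mouse 7 and 2164 to 4467 bp in the others, and Rps27-Rab13 had 1442 to 2219 bp with no mouse apart.

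At the edge of the distance rule, just inside, Btf3l4-Txndc12 (987 bp) and Zfyve26-Rad51b (978 bp) had H3K4me3 in 8 mice with medians of 3741 and 2457 bp, and Asphd1-Sez6l2 (981 bp) had it in 5 with 599 bp. Just outside, Gpr108-Trip10 (1009 bp), Sgsm2-Tsr1 (1011 bp) and Dirc2-Hspbap1 (1019 bp) had it in 8 mice with medians of 4142, 2366 and 2470 bp.

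The design asks whether cold or HFD changed these marks, and none of the 8 comparisons of divergent promoters passed. H3K4me3 was present at 96.0% ± 0.991 of members in cold and 93.7% ± 4.61 in warm mice (exact permutation p = 0.457, adjusted 0.849, n = 4 and 4). It was present at 93.4% ± 4.44 in HFD and 96.4% ± 0.302 in NCD mice (exact permutation p = 0.0857, adjusted 0.686). All 4 NCD mice were at 96.0% to 96.7%, and the HFD mice spread from 86.8% to 96.3% and overlapped them. H3K27ac was present at 65.8% ± 22.4 in cold and 58.1% ± 36.3 in warm mice (exact permutation p = 0.743, adjusted 0.849). In HFD and NCD mice it was present at 50.0% ± 36.0 and 73.9% ± 13.5 (exact permutation p = 0.286, adjusted 0.762). Mice 7 and 10, with the shortest lists, are both on HFD. Without them the difference of HFD minus NCD was 4.97 points instead of −23.9 for H3K27ac and −0.307 instead of −3.00 for H3K4me3.

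Widths by condition overlapped too. H3K4me3 peaks were 1718 ± 317 bp in cold and 1653 ± 553 bp in warm mice (exact permutation p = 0.886, adjusted 0.886), and 1598 ± 575 bp in HFD and 1774 ± 242 bp in NCD mice (exact permutation p = 0.657, adjusted 0.849). H3K27ac peaks were 736 ± 181 and 657 ± 262 bp in cold and warm mice (exact permutation p = 0.629, adjusted 0.849) and 603 ± 229 and 790 ± 174 bp in HFD and NCD mice (exact permutation p = 0.257, adjusted 0.762). The smallest p that 4 against 4 mice allow is 0.0286. The interaction of temperature and diet was also tested by exact permutation for each mark and measure, with a lowest p of 0.0857.

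Single members rarely followed a condition. For H3K4me3, 0 of 734 members had a peak in all 4 mice of one temperature and none of the other, against 0.0433% of all coding promoters (0.0384% with the peak in cold and 0.00481% in warm mice), and 0 followed diet, against 0.125%. For H3K27ac, 1 member followed temperature and 1 followed diet, each 0.136% of members, against 0.0529% of all coding promoters for each. The first was Polr3a-Rps24 (67 bp apart), with an RNA polymerase III subunit and a ribosomal protein, whose H3K27ac peaks of 246, 360, 195 and 222 bp were in the 4 cold mice. Pign-Relch (184 bp apart), with an enzyme of GPI anchor synthesis, had H3K27ac of 211, 379, 591 and 575 bp in the 4 NCD mice and none on HFD. H3K4me3 at Polr3a-Rps24 was 892 to 1584 bp and at Pign-Relch 1845 to 2589 bp, with a peak in every mouse. A member of such a pattern cannot pass adjustment over all promoters with 4 against 4 mice.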

How the data were processed

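ChIP-seq libraries of 8 mice (4 marks, 32 peak lists) were analysed, and the 8 inputs only through those lists. Per the study's methods, cutadapt quality-filtered the reads, bowtie2 aligned them to GRCm38 and macs2 called narrow peaks over each mouse's own input. No source used here gives versions or thresholds. The authors deposited for each peak its position and 4 values of the caller: fold enrichment (a ratio to local background), −log10 p, −log10 q and a score derived from q. The deposited score was not used. The lowest deposited −log10 q was 1.30. Presence and width can both move with list length, so classes were compared within a list. Read depth is unknown, so no interval for counting error was given.

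Presence was any peak with at least 1 bp in the window, width that of the widest such peak, and extension the distance from a covered 5′ end to the peak's downstream edge. Coordinates are 1-based. Windows were built with Python 3.11.15, numpy 2.4.6 and pandas 2.3.3, and the scripts were tested on simulated lists. Sequences came from the RefSeq copy of GRCm38 and genes from GENCODE M21 basic.

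The mouse was the replicate. Classes were compared by exact permutation over 256 sign flips, marks over 12870 assignments without pairing by mouse, and conditions over 70 assignments. Tests were two-sided, with Benjamini-Hochberg adjustment over 7, 2 and 8 tests and a threshold of 0.05. Mouse numbers were taken to mark the same tissue source across marks, not across conditions. Presence at members in H3K4me3 and H3K27ac lists of the same number had a Pearson's r of 0.888 (n = 8). Mouse 7 was lowest in both, so this r does not settle the identity of the animals.

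Alternatives left out each mouse or mice 7 and 10, or changed the peak threshold, overlap, 5′ ends, window, promoters or pairing. Their p-values were not adjusted. Pairs were named by a rule: textbook pairs, pairs with genes of fixed lists, the widest, the unmarked, the one-sided, those following a condition, those with H3K27me3 and those at the distance limit; some pairs that the rule names are not reported here. The members and lists were chosen with earlier results of these data known.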

Additional observations from a re-analysis of the deposited data

Results flagged for a closer look

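Of 80 groups of 4 or 8 mice examined for a sample far from the others, 11 had one, where chance gives about 1 in 20 (4 groups). Mouse 7, with the shortest lists, accounted for 9 of them. H3K4me3 was present at 86.8% of divergent promoters in mouse 7, against 94.6% to 96.7% in the other 7 mice and 95.8% to 96.2% in the other warm mice. The median H3K4me3 width at divergent promoters was 830 bp in mouse 7 and 1834 to 1996 bp in the other warm mice. The excess width over single promoters was 100.0 bp, against 337 to 534 bp in the other 7 mice. H3K4me3 extended 657 bp into the gene in mouse 7 and 888 to 902 bp in the other warm mice, and its difference from single promoters was 1.50 bp, against −156 to −94.0 bp. The H3K27ac extension of mouse 7 differed from single promoters by 85.0 bp, against −144 to −123 bp in the other warm mice. One H3K4me3 peak lay over both 5′ ends in 24.5% of its marked pairs, against 69.2% to 95.4%.

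The remaining 2 were for H3K27ac. In mouse 5 the width at divergent minus single promoters was 11.0 bp, against −37.0 to −32.5 bp in the other cold mice. In mouse 1 the extension into the genes of pairs was 457 bp, against 550.0 to 568 bp in the other NCD mice.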

How the results depend on the processing

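Presence of both marks and H3K4me3 width were compared between divergent and single promoters, and one peak over both 5′ ends between the marks. These results kept their direction under every alternative run, with unadjusted exact permutation p-values below 0.05. The highest was 0.0486, for H3K4me3 width without pairing by mouse. Among alternatives chosen after seeing the data, the CpG-rich comparison turned the excess of H3K27ac over H3K4me3 to 8.97 points. It was 0.566 without mice 7 and 10 and −15.1 with a −log10 q of at least 5 (exact permutation p = 0.0103). The H3K27ac width difference was −45.4 bp at that threshold (exact permutation p = 0.0156) and 35.3 bp for summed widths. H3K27ac extension ranged from −112 to −75.6 bp with each mouse left out, and was 4.50 bp for 5′ ends covered in 8 mice.

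The replicate block was the mouse. Without it, H3K4me3 extension (−114 bp, exact permutation p = 0.121), H3K27ac extension (−87.0 bp, p = 0.267) and H3K27ac among H3K4me3-marked promoters (15.9 points, p = 0.239) no longer passed, even before adjustment. H3K4me3 width (392 bp) was near the threshold there, with an unadjusted exact permutation p of 0.0486. With the mouse as block, the excess of one mark over the other stayed at −8.93 points (exact permutation p = 0.305).

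With each mouse left out, H3K4me3 presence in HFD minus NCD ranged from −3.99 (without mouse 11, exact permutation p = 0.0286) to −0.806 points. H3K4me3 width ranged from −210 (without mouse 7) to 179 bp in cold minus warm and from −371 to 80.1 bp (without mouse 7) in HFD minus NCD. In cold minus warm, H3K27ac presence ranged from −9.99 (without mouse 7) to 17.2 points and width from −26.1 (without mouse 7) to 183 bp. Without mice 7 and 10, H3K4me3 width was −152 bp in cold minus warm and 234.8 bp in HFD minus NCD, and H3K27ac presence −0.454 and 4.97 points. As divergent minus single promoters, H3K4me3 presence was −2.62 points in cold minus warm and 4.73 in HFD minus NCD, and H3K27ac width −20.9 bp in cold minus warm. Members following a condition numbered 0 for H3K27ac at a −log10 q of at least 5 (temperature and diet) and, for temperature, 0 with a 200 bp overlap and 0 with coding transcripts. With 1 exception allowed they were 2 for H3K4me3 by diet, and 4 by temperature and 5 by diet for H3K27ac. Values without mouse 7 for the distance bins, the profile and the count of pairs acetylated on both genes were also chosen after seeing the data. The causes were not tested.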
